A study of Homo sapiens with 6 samples.

Results

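Sites of thymidine glycol (Tg) in and around PTPRN2, a gene near the end of the long arm of chromosome 7, are described here. Tg is an oxidised form of thymidine in DNA. A site belonged to the locus when its midpoint lay in PTPRN2 (hg38 chromosome 7, 157539056 to 158587823, 1049 kb) or within 500 kb of it. This rule found 91 sites of 13061 in all. Of these, 40 were among the 3688 sites of wild-type cells and 51 among the 9373 sites of knockout cells. PTPRN2 was chosen by its number of sites in both lists, so the number of sites in it is a description and no test is attached to it.

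DPC-Seq was run on HEK293T cells, a line derived from human embryonic kidney that expresses the large T antigen of SV40. The wild-type cells were compared with an isogenic line in which the DNA glycosylases NTHL1 and NEIL1 were both disrupted (genotype NTHL1-/-,NEIL1-/-, here double knockout), and the labels give no treatment of the cells. In the assay, NTHL1 protein is added to fragmented genomic DNA, stays covalently bound where it has removed a Tg, and the bound fragments are enriched and sequenced. The labels list 2 labelled libraries and 1 input library per genotype, but each genotype is represented by 1 list of sites, so the values below carry no spread between libraries and no comparison between the genotypes has a p-value. Intervals given here are exact 95% intervals that cover counting error only, and because neighbouring sites are not independent they are too narrow. Fold enrichment is the authors' value, the reads at the highest point of a site (its summit) over the caller's local background. How many knockout clones were used is not given in the sources used here.

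NTHL1 and NEIL1 start base excision repair by cutting oxidised pyrimidines such as Tg out of DNA. PTPRN2 encodes phogrin, also called IA-2 beta, a receptor-type protein tyrosine phosphatase with little or no phosphatase activity towards proteins. It sits in the membrane of dense-core secretory vesicles in neurons and endocrine cells, and it is an autoantigen in type 1 diabetes. The gene is read towards the centromere, so its transcription start is its telomere-side end, 647 kb before the last annotated gene or site of the chromosome. Transcripts were not measured.

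PTPRN2 held 24 wild-type sites (15.4 to 35.7) and 29 double-knockout sites (19.4 to 41.6). The rate in the gene was 22.9 wild-type sites per Mb (14.7 to 34.0) and 27.7 double-knockout sites per Mb (18.5 to 39.7). The flanks were also dense. The 500 kb on the centromere side held 9 wild-type and 11 double-knockout sites, and the 500 kb on the telomere side held 7 and 11. Together the flanks carried 16 wild-type sites per Mb (9.15 to 26.0) and 22 double-knockout sites (13.8 to 33.3). The rate in the gene was thus 1.43 times that of its flanks in wild type (0.729 to 2.88) and 1.26 times in the double knockout (0.697 to 2.30), and both intervals hold 1. The next 2 Mb towards the centromere carried 12 wild-type (7.69 to 17.9) and 19 double-knockout sites per Mb (13.4 to 26.1), while chromosome 7 outside the gene and its flanks had 1.17 (1.01 to 1.35) and 2.70 (2.45 to 2.97). The higher rate was therefore measured in the gene, both flanks and this stretch, near the end of the chromosome arm and not in PTPRN2 alone. HEK293T has an uneven number of copies of its chromosomes, and the part of copy number in these rates was not tested.

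**Figure D1:**
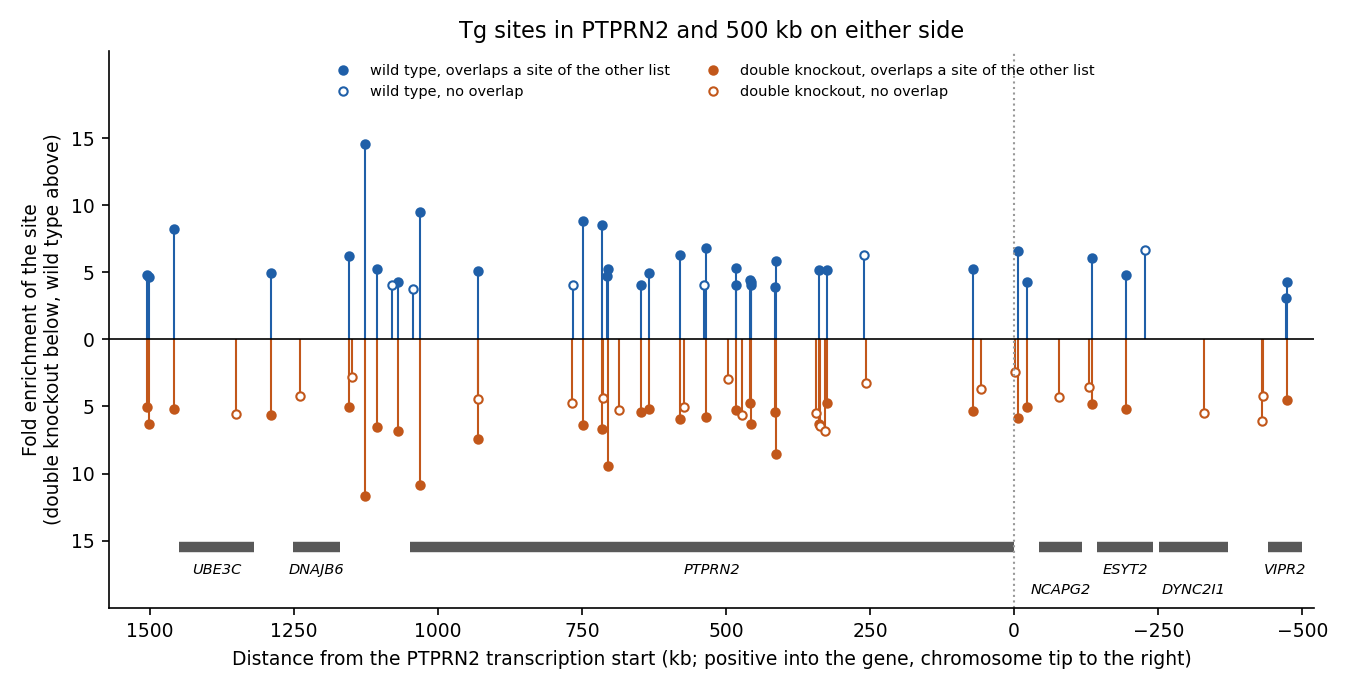
Each stem is a Tg site, placed by its distance in kb from the PTPRN2 transcription start, with its fold enrichment as height (wild type upwards, double knockout downwards); filled points overlap a site of the other list, open points do not, and grey bars are protein-coding genes. Of the 40 wild-type sites 34 overlap a double-knockout site, of the 51 double-knockout sites 30 overlap a wild-type site, and the highest stem of both lists lies in the flank outside the gene.

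**Figure D2:**
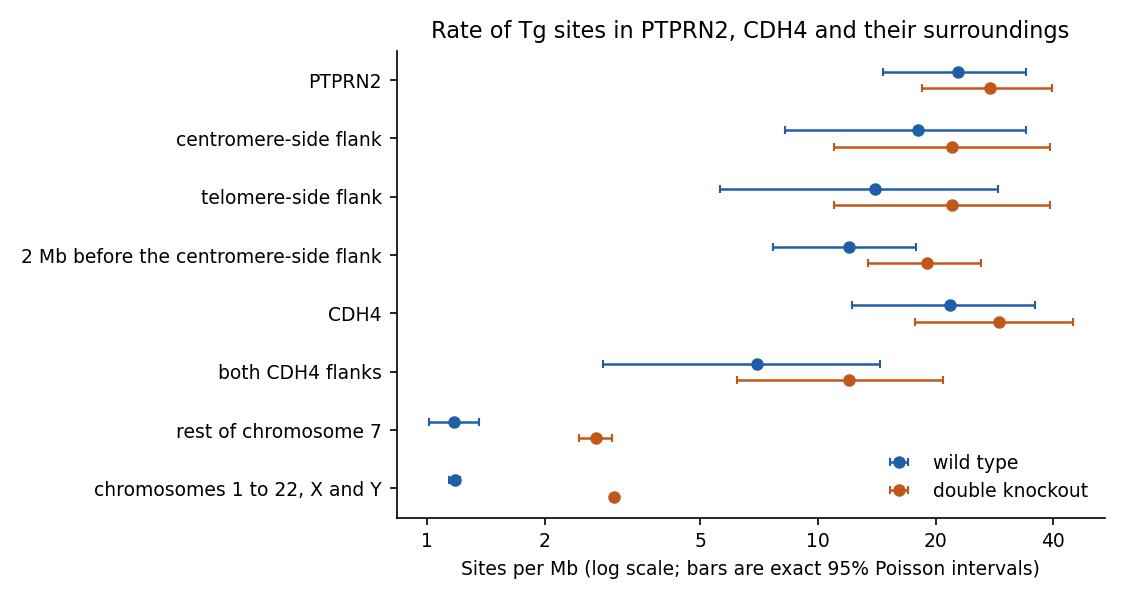
Sites per Mb (log axis) in PTPRN2, its flanks, the 2 Mb before them, the gene CDH4 with its flanks, the rest of chromosome 7 and all main chromosomes; points are rates and bars exact 95% Poisson intervals. PTPRN2 lies at 22.9 sites per Mb for wild type and 27.7 for the double knockout, above the rest of chromosome 7 at 1.17 and 2.70, and its flanks overlap it.

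How many more sites the double-knockout list held at PTPRN2, relative to other places, depended on the setting. In PTPRN2 the number of double-knockout sites was 1.21 times that of wild-type sites (0.679 to 2.17) and in its flanks 1.38 times (0.690 to 2.80). On the rest of chromosome 7 it was 2.30 times (1.93 to 2.75), and on all main chromosomes 2.56 times (2.47 to 2.66). The difference between these ratios was not tested, since the gene was chosen by its number of sites. Total reads are unknown, but the lowest backgrounds of the lists had a ratio of 1.69, double knockout over wild type, which stands for depth times fragment length. Per base pair of the narrowest site the ratio was 1.61, which was taken as the ratio of depth alone. Double-knockout reads and background were then divided by 1.69 and both lists held to the same p. PTPRN2 held 13 wild-type and 16 double-knockout sites in that setting, against 1856 and 2137 over the lists. The factor at PTPRN2 was then no longer the smaller one, while the flanks held 10 wild-type and 8 double-knockout sites. These counts are small, and no interval was computed for this setting.

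CDH4 on chromosome 20, the gene of the adhesion protein R-cadherin, was the closest match to PTPRN2. Likeness was the distance between genes in the sites per Mb of both lists, each as log2(sites per Mb + 1), over 773 protein-coding genes of at least 300 kb. It rests on 2 values per gene. PTPRN2 ranked 1 of these genes by wild-type rate and 4 by double-knockout rate. CDH4 carried 21.8 sites per Mb for wild type and 29.1 for the double knockout, at a distance of 0.097. The ratio of PTPRN2 to CDH4 was 1.05 in wild type (0.529 to 2.15) and 0.952 in the double knockout (0.520 to 1.77). Ratios near 1 follow from CDH4 being the nearest gene in these rates. It was named as the comparison locus with earlier results of these data known. The next were ZNF469, a zinc finger gene, at 14.7 and 26.5 sites per Mb, CELF4, a gene of an RNA-binding splicing regulator, at 15.5 and 34.1, GSE1, a gene of a coiled-coil protein, at 13.8 and 19.7, and the collagen gene COL22A1 at 18.4 and 15.3, at distances from 0.607 to 0.863. Around CDH4 the flanks of 500 kb had lower rates than the gene. The rate in CDH4 was 3.11 times that of its flanks in wild type (1.19 to 9.03) and 2.42 times in the double knockout (1.13 to 5.43). Because PTPRN2 was chosen for its number of sites and CDH4 is its closest match in rate, these ratios are descriptions. The difference between the 2 loci was not tested.

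Within PTPRN2 the sites lay mainly in the middle of the gene. The gene was divided into 10 equal parts of 105 kb, numbered from the transcription start. Parts 4 to 7 held 17 of the 24 wild-type and 21 of the 29 double-knockout sites. These parts were grouped from the counts themselves, so their share is a description. Many of the sites overlap between the lists, so the lists are not independent in this. From part 1 to part 10 the wild-type list held 1, 0, 1, 4, 5, 3, 5, 2, 1 and 2 sites, and the double-knockout list held 2, 0, 1, 7, 5, 3, 6, 2, 2 and 1. Part 2 was empty in both lists. Parts 1 to 5, nearer the start, held 11 wild-type and 15 double-knockout sites, and parts 6 to 10 held 13 and 14. Exon coordinates were not used here, so sites were not divided between exons and introns.

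**Figure D3:**
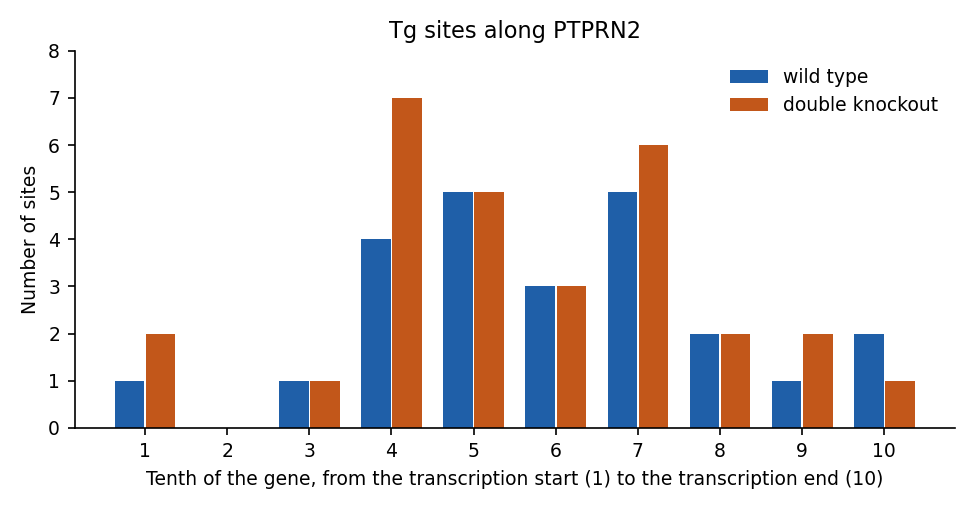
Number of sites (bars, from 0) in each of 10 equal parts of PTPRN2 from the transcription start to the transcription end, for wild type and double knockout. Parts 4 to 7 hold 17 wild-type and 21 double-knockout sites, and part 2 holds none in either list.

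Neither end of the gene carried a site at its edge. Sites in the gene lay a mean of 42.3 kb apart in wild type and 34.8 kb in the double knockout, so this absence is a description. The nearest wild-type site inside the gene lay 70.9 kb from the transcription start and the nearest double-knockout site 57.7 kb from it. Upstream of the start, the nearest sites lay at 6.44 kb in wild type and 1.79 kb in double-knockout cells. That double-knockout site (158589609 to 158589918) ranked low in its list, with a fold enrichment of 2.43, 15 reads (8.40 to 24.7) and a −log10 q of 1.48. At the transcription end, the nearest site inside lay at 5.61 kb in wild type and 17.1 kb in double-knockout cells. No promoter window of PTPRN2 was available. Those available for other genes of the locus were free of sites. Of 14 RefSeq windows (GRCh38.p14, 250 bases before to 50 after a gene start) none overlapped a site of either list, where 0.0968% of 35116 windows over the main chromosomes overlapped one in wild type and 0.222% one in the double knockout. At those shares 14 windows are too few to show a difference.

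Both lists left the same long stretches of the gene empty. Taking both lists together, overlapping sites merged into 33 places in the gene. Of these, 17 held sites of both lists, 12 were in the double knockout only and 4 in wild type only. Between the places, 3 stretches of over 90 kb held no site of either list. They ran from 157557521 to 157656870 (99.4 kb), from 157658112 to 157820395 (162 kb) and from 158331040 to 158516466 (185 kb), and made up 42.6% of the gene. The stretches were found from the sites themselves, so their length is a description. The first of these stretches holds the microRNA gene MIR153-2, named after its values were seen, whose nearest sites lay 16.9 kb away in wild type and 16.8 kb in double-knockout cells. All 7 annotated genes inside PTPRN2, 2 of microRNAs and 5 of long non-coding RNAs, the antisense gene PTPRN2-AS1 among them, were without a site in both lists. They cover only 32.4 kb of it, too little for this absence to be read as a result. Whether sequence that cannot be mapped uniquely fills part of these stretches was not tested.

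Spacing was uneven, with the empty stretches counted. The distance from a site to the next in PTPRN2 had a median of 23.6 kb in wild type (0.788 to 189 kb) and 13.8 kb in the double knockout (0.709 to 186 kb). Outside the locus on chromosome 7 the medians were 213 kb and 130 kb. Under 10 kb were 6 of 23 wild-type and 11 of 28 double-knockout distances (26.1% and 39.3%), against 13.4% over both whole lists and 21.4% and 21.1% in CDH4. Because PTPRN2 was chosen by its number of sites, shorter spacing than elsewhere follows from the choice, and the values are a description. Joining places less than 10 kb apart gave 10 clusters, which together spanned 69.6 kb and held 18 of the wild-type and 21 of the double-knockout sites.

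**Figure D4:**
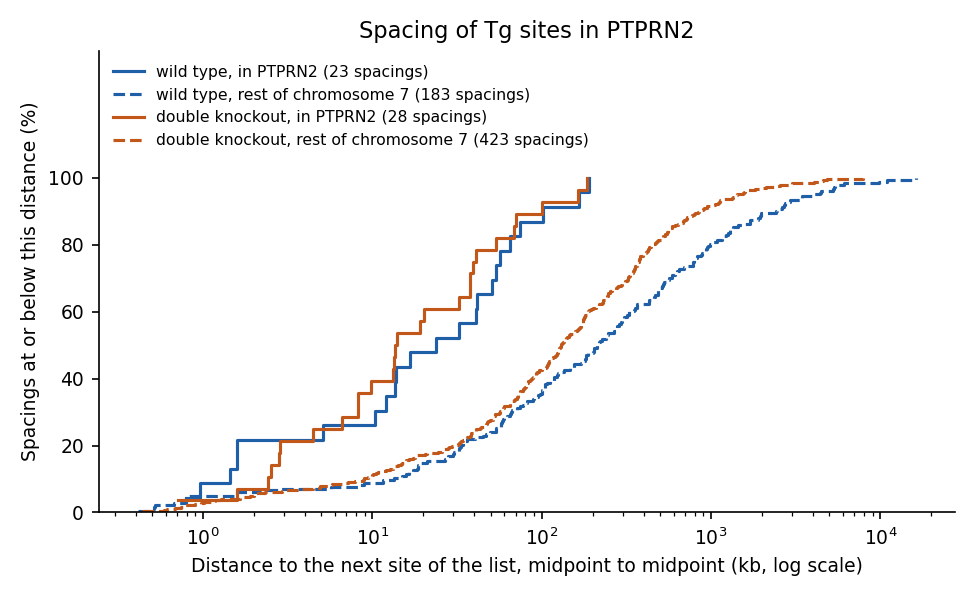
Share of spacings (percent) at or below a given distance to the next site of the same list (kb, log axis), in PTPRN2 (solid) and on chromosome 7 outside the locus (dashed). The medians in the gene are 23.6 kb in wild type and 13.8 kb in double-knockout cells, against 213 kb and 130 kb outside, a gap that follows from choosing the gene by its number of sites.

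The cluster with the most places lay 325 to 343 kb from the transcription start, at 158244404 to 158263153. Over 18.8 kb it held 5 double-knockout and 2 wild-type sites. Both wild-type sites overlapped a double-knockout site, with fold enrichments of 5.15 and 5.14 in wild type and 6.28 and 4.75 in the double knockout. The 3 further double-knockout sites had folds of 5.45, 6.45 and 6.82, and 2 of them were above both shared sites. A second cluster lay at 157871654 to 157884203 and held 3 sites of each list. At the side of the cluster nearer the transcription start, a double-knockout site of 2271 bp at 157881933 to 157884203 had a fold of 9.43 and overlapped 2 separate wild-type sites with folds of 4.75 and 5.21.

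The highest sites of the locus were found in both lists. The highest in the gene lay 1031 kb from the transcription start. In wild type it ran from 157556179 to 157557479 with a fold of 9.46 and 25 reads (16.2 to 36.9), above 97.0% of the wild-type list by −log10 q. In the double knockout it ran from 157556146 to 157557520 with a fold of 10.9 and 42 reads (30.3 to 56.8), above 99.3% of that list. Scaled to wild-type depth, the double-knockout reads came to 24.8, so the lists differed there by less than counting error. A higher site lay outside the gene, 1126 kb from the start, at 157461138 to 157461725 in the double knockout. It had a fold of 14.6 and 39 reads (27.7 to 53.3) in wild type, and a fold of 11.6 and 57 reads (43.2 to 73.8) in the double knockout, or 33.7 scaled reads. It lay between DNAJB6 and PTPRN2, in no gene of the annotation.

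Wild-type sites of PTPRN2 were mostly listed in the double knockout too. Of the 24 wild-type sites, 20 (83.3%, 62.6% to 95.3%) overlapped a double-knockout site by 1 bp or more, against 75.3% of the whole wild-type list, which the interval holds. Of the 29 double-knockout sites, 17 (58.6%, 38.9% to 76.5%) overlapped a wild-type site, against 28.3% of the whole double-knockout list, which lies below the interval. Overlaps also come with the number of sites by which the gene was chosen, so both shares are descriptions. Strength moves with sharing. By −log10 q the 29 double-knockout sites in PTPRN2 had a median of 10.2, against 5.88 over their list. Of the 29, 24 lay above that list median, a split that does not fully match strength. Of these 24, 17 were shared (70.8%, 48.9% to 87.4%), against 44.5% of all double-knockout sites above that median. None of the other 5 was shared (0% to 52.2%), against 12.1% of all sites at or below the median. In the flanks 14 of 16 sites were shared in wild type and 13 of 22 in the double knockout, and in CDH4 15 of 15 and 14 of 20.

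Part of the PTPRN2 sites listed in only 1 genotype lay near a site of the other. Of the 4 such wild-type sites, 3 were within 5 kb of a double-knockout site, at 1.77, 2.94 and 4.44 kb, and the fourth was at 11.2 kb. They had 12 or 13 reads and folds of 3.75 to 6.25. Of the 12 double-knockout sites without overlap, 7 were within 5 kb of a wild-type site. Over the whole lists 16.9% of the wild-type sites without overlap were that near, and 6.63% of those in the double knockout, but short distances come with the number of sites by which the gene was chosen. In the flanks 0 of 2 such sites in wild type and 1 of 9 in the double knockout were within 5 kb. The 12 in the gene were weaker and narrower than the 17 shared ones, with a median fold of 4.88 against 5.95, a median of 20.5 reads against 28 and a median width of 418 bp against 815 bp. The same held over the whole double-knockout list, with medians of 4.72 against 5.70, 15 reads against 23 and 364 bp against 590 bp. With reads and background of the PTPRN2 sites scaled to wild-type depth, 10 of the 12 had a −log10 p at or above 3.79, the lowest in the wild-type list, as had 17 of the 17 shared sites. Over the whole double-knockout list 88.6% of sites without overlap passed that value.

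Reads at shared sites of PTPRN2 lay on both sides of equality between the genotypes after scaling. The 24 wild-type sites had 11 to 25 reads at the summit (median 15), and the 29 double-knockout sites 14 to 42 (median 27) before scaling. Double-knockout reads were divided by 1.69, the ratio of the lowest backgrounds of the lists, which stands for depth times fragment length. Over the 20 wild-type sites that overlapped a double-knockout site, the ratio of scaled double-knockout to wild-type reads had a median of 1.03 and ran from 0.638 to 1.60. It was below 1 at 9 of the 20. Over all 2776 such pairs of the lists the median was 0.940, and 58.2% were below 1. The median in PTPRN2 moved to 0.961 over the 14 pairs in which each double-knockout site overlapped 1 wild-type site, so which side of 1 it took depended on the pairs counted. In the flanks it was 0.914 over 14 pairs, and in CDH4 0.971 over 15.

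Single pairs showed where the reads differed most. The lowest ratio, 0.638, was at 157871691 to 157872367, with 25 wild-type reads (16.2 to 36.9) and 27 double-knockout reads (17.8 to 39.3) that scaled to 16.0. The next lowest, 0.709, was at 158053764 to 158054282, where 15 wild-type reads stood against 10.6 scaled reads. The wild-type interval of the lowest pair starts just above the scaled value, before the error of the latter is counted. The 4 highest ratios, 1.43 to 1.60, all belonged to wild-type sites that shared their double-knockout site with another wild-type site. At 158130402 to 158133014 that site had 38 reads (22.5 scaled) and a fold of 6.31, over wild-type sites of 14 and 15 reads with folds of 4.02 and 4.29. At 158104364 to 158106625 it had 23 reads (13.6 scaled), over wild-type sites of 15 and 13 reads, with ratios of 0.906 and 1.05. The shared site nearest the transcription start, at 158516467 to 158516875 in wild type, had 21 reads there and 32 in the double knockout, a ratio of 0.900.

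**Figure D5:**
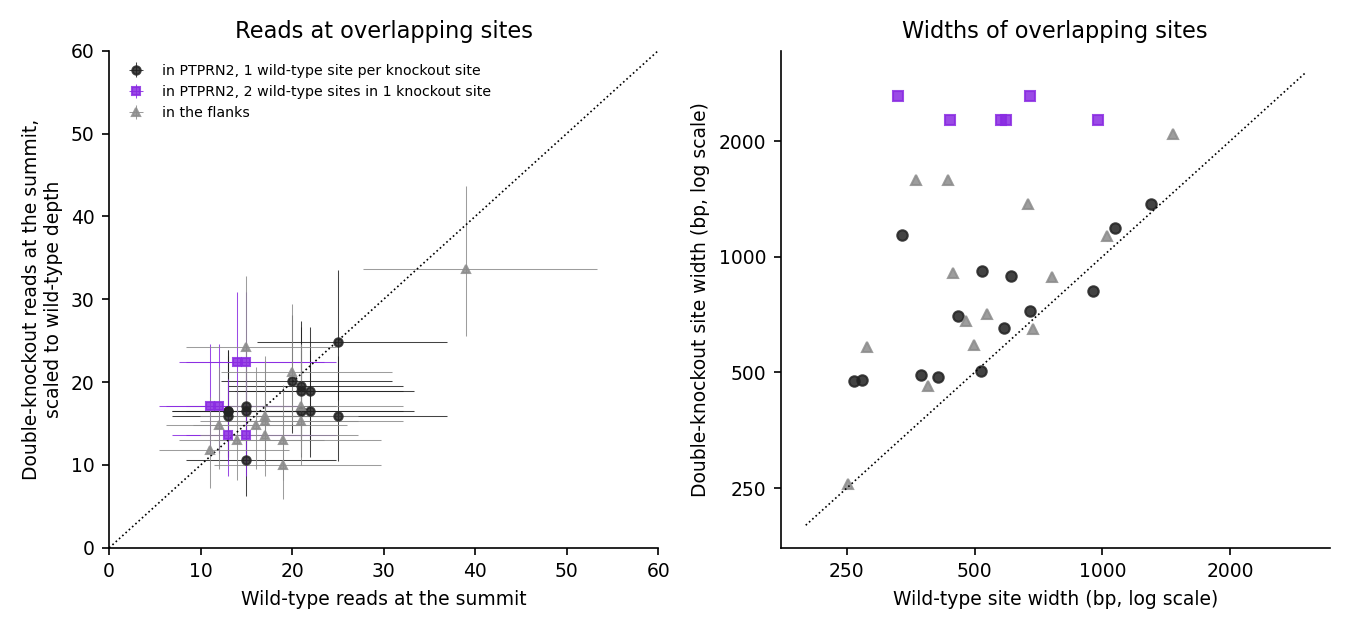
Left, wild-type reads at the summit against double-knockout reads scaled to wild-type depth for overlapping sites, with exact 95% Poisson intervals; right, their widths in bp (log axes); the dotted line marks equality. Scaled reads scatter around the line. Widths are not scaled for depth, and the double-knockout site is the wider in 18 of the 20 pairs in PTPRN2. Over all pairs of the lists it is the wider in 83.2%. Squares mark wild-type sites that share 1 double-knockout site.

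Most sites of PTPRN2 were wider than the median of their list, as were most in its flanks and in CDH4. Their width had a median of 549 bp in wild type (260 to 1301) and 568 bp in the double knockout (296 to 2613), where the whole lists had medians of 380 bp and 409 bp. In wild type 17 of 24 sites were wider than the median of the list, and in the double knockout 24 of 29. The medians were 461 bp and 601 bp in the flanks and 419 bp and 561 bp in CDH4. At least 1 kb wide were 2 of 24 wild-type sites (8.33%, 1.03% to 27.0%, against 4.53% of the list). In the double knockout 6 of 29 sites were (20.7%, 7.99% to 39.7%, against 5.81% of the list). Width moves with sharing. All 6 were among the 17 shared double-knockout sites of the gene (35.3%, 14.2% to 61.7%), against 17.2% of all shared double-knockout sites. Of all double-knockout sites without overlap, 1.32% were that wide. In the flanks 2 of 16 and 4 of 22 were that wide. The widest were 3 double-knockout sites of 2262, 2271 and 2613 bp, each of which overlapped 2 separate wild-type sites. Of the 20 overlapping pairs, the double-knockout site was the wider in 18 (90%, against 83.2% of all pairs of the lists). The median ratio was 1.65, against 1.35 over all pairs. Over the 14 pairs with 1 wild-type site per double-knockout site, the double-knockout site was the wider in 12 (85.7%). Their median ratio was 1.25. Widths were not scaled for depth, and the narrowest site of the list was 243 bp in wild type and 256 bp in the double knockout. Summits of a pair lay a median of 113 bp apart (8 to 1736 bp), against 91 bp over all pairs of the lists. Within 100 bp of each other were 10 of the 20 (50%), against 53.1% of all pairs. Over the 14 pairs with 1 wild-type site per double-knockout site the median was 71 bp (8 to 382 bp).

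The local background was above the list medians at most sites of PTPRN2, and its flanks were as high or higher. The background under a site, recovered from its fold and p in units of reads, had a median of 2.36 in wild type (1.24 to 3.72) against 1.74 over the list, and of 3.59 in the double knockout (2.02 to 6.38) against 2.65. It was above the median of the list at 18 of 24 sites in wild type and at 25 of 29 in the double knockout. In the flanks the median was 2.60 in wild type (13 of 16 sites above the list median) and 3.59 in the double knockout (21 of 22). The median fold was 5.13 in wild type, close to the 5.12 of the list, and 5.39 in the double knockout against 4.93. In CDH4 the background had a median of 1.74 in wild type and 2.55 in double-knockout cells. The part of copy number or of mapping in this background was not tested.

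Outside protein-coding genes lay 12 of the 16 wild-type and 16 of the 22 double-knockout sites of the flanks. Such sequence makes up 43.0% of the flanks, and over the main chromosomes 54.0% of the wild-type list and 52.1% of the double-knockout list lay there. On the centromere side, UBE3C, a gene of a ubiquitin ligase, and DNAJB6, a gene of a co-chaperone of the Hsp40 family, held no wild-type site and 1 double-knockout site each. On the telomere side, ESYT2, whose protein tethers the endoplasmic reticulum to the plasma membrane, held 2 wild-type sites and 1 double-knockout site. VIPR2, the gene of a receptor for vasoactive intestinal peptide, also held 2 and 1, and there the 2 wild-type sites lay under 1 double-knockout site of 1584 bp (159059651 to 159061234). NCAPG2, a gene of a condensin II subunit, and DYNC2I1, a gene of the dynein-2 complex of cilia, held no wild-type site and 1 double-knockout site each. The protein-coding models LOC124901803 and LOC124901794 held none in either list. The 500 kb limit fell in stretches with few sites. On the telomere side the last site inside lay 473 kb from the gene in both lists, with a wild-type fold of 4.28 and a double-knockout fold of 4.50, and the first outside at 578 kb (wild type, 6.78) and 579 kb (double knockout, 4.26). On the centromere side the last inside lay at 456 kb in both, with folds of 4.82 and 5.01, and the first outside at 1021 kb (wild type, 4.10) and 641 kb (double knockout, 6.43).

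In a list of other secretory vesicle genes, the share with a site was near that of protein-coding genes in general. Few of these genes held a site, no interval was computed, and gene length was not matched, so the shares are descriptions. Of a list of 27 genes, 2 held a wild-type site, a share of 7.41% where 5.88% of 20037 protein-coding genes held one, and 5 held a double-knockout site, a share of 18.5% against 14.0%. UNC13A, which primes vesicles for release, held 4 wild-type and 2 double-knockout sites in 87.0 kb, or 46.0 wild-type sites per Mb, and CADPS2, another priming factor, held 1 in each list. RPH3A, a Rab3 effector, held 2 double-knockout sites and SLC18A2, the vesicular monoamine transporter, and SYTL4, the Rab27 effector granuphilin, held 1 each, with none in wild type. PTPRN, the paralogue of PTPRN2 on chromosome 2 and the other phosphatase-like vesicle protein, held no site in either list over 19.8 kb. The list as a whole had 1.66 sites per Mb for wild type and 2.33 for the double knockout over 3005 kb. All main chromosomes had 1.17 and 3.01. UNC13A alone held 4 of the 5 wild-type sites of the list.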

How the data were processed

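For each genotype the authors deposited 1 list, without a header; it was tied to its genotype by the genotype word its name shares with the titles of the labelled libraries. Bowtie2, MACS2, bedtools, deepTools and hg38 are named per the submitters' processing notes, with versions, settings, roles, the joining of libraries and the control not given in the sources used here. Total reads per library are unknown. In the deposited rows the fold enrichment is a ratio of summit reads over background, the −log10 p and −log10 q are the caller's, and the score was 10 times the −log10 q rounded down in all rows. The largest q was 0.0450 (wild type) and 0.0489 (double knockout).

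Reads and background were recovered from fold and −log10 p, reading the fold as (reads + 1)/(background + 1) and the p as a Poisson upper tail; whole reads matched the deposited −log10 p within 0.001 at 100% of sites. The recovery and the overlap search were tested on simulated data. Gene coordinates are RefSeq's (GRCh38.p14, the same primary coordinates as hg38); the strand of PTPRN2 is general knowledge. Intervals were exact Poisson for counts, Clopper-Pearson for shares and conditional binomial for ratios of rates (scipy 1.17.1). Genes named were PTPRN2, the protein-coding genes within 500 kb, CDH4 as comparison locus, the 5 genes most alike (CDH4 among them), and vesicle genes that held a site. PTPRN, in the vesicle list without a site, was added after its values were seen. The members and lists were chosen with earlier results of these data known. No sequence of a site was used here.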

Additional observations from a re-analysis of the deposited data

How the results depend on the processing

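Each genotype has 1 list, so no replicate could be left out. No paired analysis was possible because the lists carry no values per library. At a −log10 q of at least 5, the wild-type sites fell from 24 to 13 in PTPRN2 and from 16 to 10 in the flanks. With double-knockout reads and background at wild-type depth and both lists at or above a −log10 p of 8.46, the wild-type median, the count for the double knockout fell from 29 to 16 in the gene and from 22 to 8 in the flanks, and wild-type sites to 13 and 10 (the latter setting for wild type was chosen after seeing the data). With sites closer than 10 kb merged, the gene held 18 groups in each list, which was a drop from 29 in the double knockout. With a reciprocal overlap of at least 50%, 54.2% of the wild-type sites in the gene were shared (13 of 24), and the median ratio of scaled reads was 0.929; at a −log10 q of at least 5 in both lists it was 0.903, and by depth alone 1.08. Apart from scaling by depth alone, these alternatives keep fewer sites or pairs by construction. The other shares in the gene ran from 69.2% to 92.3% for wild-type and from 44.8% to 62.1% for double-knockout sites. Placing sites by any overlap changed no count. With 11 to 25 reads at a wild-type site of the gene, counting error is wide, and total depth is unknown.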

Other observations

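The backgrounds of overlapping sites stood in fixed ratios at part of the locus. At 8 of the 34 pairs in PTPRN2 and its flanks the double-knockout background was 1.61 or 1.69 times the wild-type background within 0.1%, the ratios of the lists as a whole by depth alone and by depth times fragment length. The same held for 21.8% of all 2776 pairs. Which input library served as control for each list is not given in the sources used here, so whether the lists share one is unknown.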
